A study of Danio rerio with 16 samples.

Results

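Expression of 5 genes of antigen presentation was measured in zebrafish brain: the major histocompatibility complex (MHC) class I genes mhc1ufa and mhc1zba, the MHC class II genes mhc2dab and mhc2daa, and psme1, a subunit of a proteasome activator. All probe sets were taken whose single gene symbol in the array's annotation table was one of these names. This rule found 4 probe sets, 1 each for mhc1ufa, mhc1zba, mhc2daa and psme1. A probe set for mhc2dab carries no name in that table and was taken by the name printed for it in the study. In all, 5 of the 7922 probe sets tested are described. Their strain differences had been seen before these genes were chosen.

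The study set the brains of 4 zebrafish strains side by side, which differed in behavior and in how long they had been kept in captivity. The 16 arrays held 4 pools per strain, with 2 pools of females and 2 of males, labelled F1, F2, M1 and M2 below. Each pool held whole brains of 2 to 5 adult fish of 1 sex, aged 4 to 6 months, all reared at 1 facility on 14 h of light and 10 h of dark, fed alike and observed in the same behavior test before sampling. The strains TM1 and SH (Scientific Hatcheries) are labelled domesticated, and Nadia and Gaighatta, which descend from fish taken in India, are labelled wild. Pools came from separate tanks, and a p-value measures the spread between such pools. Values are deposited log2 expression values, so a difference of 1 is a doubling.

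The strain labels need care. The study ascribes a green fluorescent protein transgene to the TM1 strain, but its probe set reached 8.58 to 10.46 in the 4 Gaighatta arrays and no more than 3.36 in any other, those labelled TM1 included. Over 1642 probe sets of a table printed by the study, the TM1 arrays hold, within 0.0001, the values of the columns headed Gaighatta and the Gaighatta arrays those of TM1, and SH and Nadia are likewise exchanged. Every strain name below is therefore the deposited label and nothing more. The same 8 pools stand together under both namings, but the domesticated and wild sides change places.

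MHC class I molecules sit on nearly all nucleated cells and show peptides cut by the proteasome in the cytosol to CD8 T cells. Class II molecules are pairs of an alpha and a beta chain that show peptides from endosomes to CD4 T cells, and in the brain they are carried mainly by microglia and other macrophages. In zebrafish the class I genes form several lineages, among them the U genes, classical in kind, and the Z genes, and fish of different MHC haplotypes carry different sets of U genes. Proteasome activator PA28 is built from the products of psme1 and psme2 and opens the ends of the proteasome.

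The 5 genes all differed among strains. Each passed for at least 1 of the 6 strain pairs at an adjusted p of 0.05 (limma, Benjamini-Hochberg over 7922 probe sets), against 34.6% of all probe sets. Between strains labelled SH and Gaighatta all 5 passed, where 17.1% of all probe sets did. Between TM1 and SH 3 passed (6.64% of all), between TM1 and Nadia 2 (3.17%), between TM1 and Gaighatta 3 (20.9%), between SH and Nadia 3 (5.66%), and between Nadia and Gaighatta only mhc1ufa (14.3%). Strain accounted for 66.6% of the variance over the 16 pools in mhc1zba, 72% in mhc2daa, 78.7% in psme1, 87.2% in mhc2dab and 90.6% in mhc1ufa, against a median of 39.8% over all probe sets. The median of the largest strain difference was 1.17 for the 5 genes and 0.31 for all probe sets. The deposited table gives no detection calls. The probe sets of green fluorescent protein, in the 12 arrays where they were low, lay at 2.46 to 3.36, so a probe set at such values is not shown to be above background. That holds for mhc1ufa in 2 pools labelled Gaighatta and in TM1 F1, for mhc2dab in SH F1 and SH M2, and for mhc2daa in all SH pools, 3 TM1 pools and Nadia M2. Differences against these pools are differences of deposited values and not measured folds, and the sizes set against such pools may not be those of the transcripts. Probe sets measure RNA through short probes, so a difference in the amount of transcript and a difference in the sequence under the probes cannot be told apart here, and MHC genes have close relatives whose RNA may reach the same probes.

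**Figure D1:**
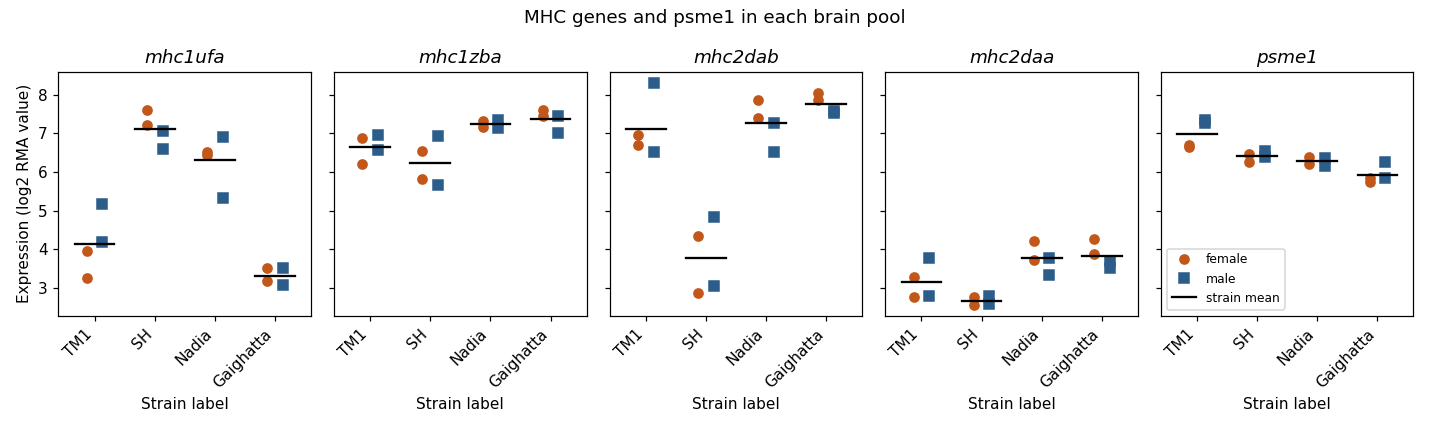
Deposited log2 expression of the 5 genes (vertical axis, 1 scale for all panels) in each brain pool by strain label. Circles are female pools, squares male pools and bars strain means; mhc1ufa is highest under the labels SH and Nadia, whereas mhc2dab in the 4 pools labelled SH lies at 2.87 to 4.82, below the other 12 pools.

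For mhc1ufa, a class I gene of the U lineage, the strains fell into a high and a low group. In pools labelled SH it was measured at 7.61, 7.22, 6.60 and 7.07 (F1, F2, M1, M2), and in those labelled Nadia at 6.45, 6.53, 5.33 and 6.91. Pools labelled TM1 gave 3.24, 3.95, 5.18 and 4.19, and those labelled Gaighatta 3.51, 3.16, 3.52 and 3.06. All 8 pools of SH and Nadia lay above all 8 pools of TM1 and Gaighatta, the closest being Nadia M1 and TM1 M1. Strain means were 7.12 ± 0.42, 6.31 ± 0.68, 4.14 ± 0.80 and 3.31 ± 0.24 (SD, n = 4) in that order. The mean under the label SH was 3.81 higher than under Gaighatta, where the pools lay at or just above the values of the absent transgene (SE 0.35, adjusted p = 1.41e-06), and 2.98 higher than under TM1 (adjusted p = 0.000144). Nadia exceeded Gaighatta by 2.99 (adjusted p = 2.48e-05) and TM1 by 2.16 (adjusted p = 0.00241). Neighbours within the high group (difference 0.82, adjusted p = 0.198) and within the low group (0.83, adjusted p = 0.105) overlapped and did not pass, although TM1 passed over Gaighatta without TM1 F1 (1.13, adjusted p = 0.0321).

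A second U gene, mhc1uaa, showed the opposite order. Its probe set, like that of mhc2dab, is named only by the study, and it was described because it belongs to the list of class I genes. Pools labelled TM1 gave 5.98, 5.89, 6.51 and 5.85, and those labelled Gaighatta 6.62, 6.22, 6.17 and 5.87. Those labelled SH gave 3.39, 3.44, 3.62 and 3.46, and those labelled Nadia 3.12, 3.62, 3.54 and 3.40. Nadia F1 lies within the values of the absent transgene, 2.46 to 3.36, and is not shown to be above background. The other SH and Nadia pools lie just above these values, so the sizes below may not be those of the transcript. The groups that were high for mhc1ufa were thus low for mhc1uaa in every pool. Nadia lay 2.80 below Gaighatta (SE 0.16, adjusted p = 2.2e-08) and SH 2.57 below TM1 (adjusted p = 8.97e-08), and neither TM1 and Gaighatta (adjusted p = 0.487) nor SH and Nadia (adjusted p = 0.894) passed.

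**Figure D2:**
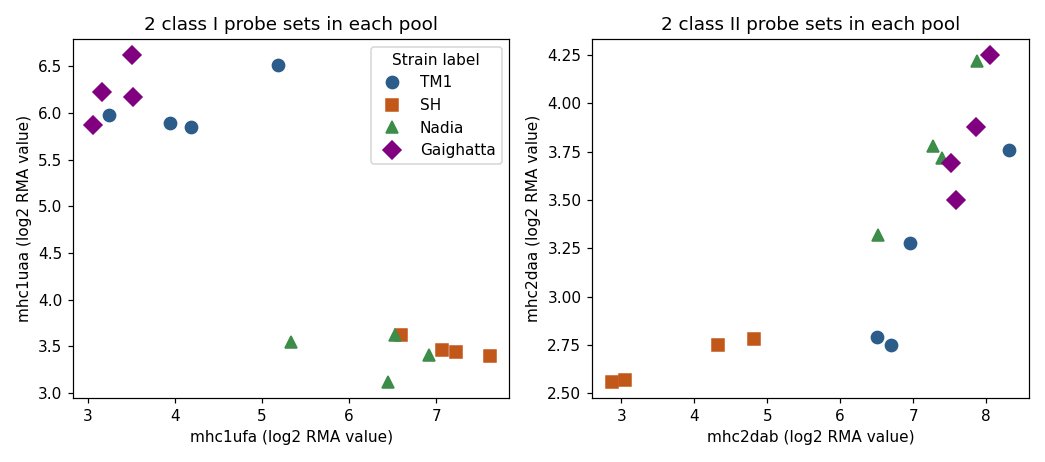
Log2 expression of pairs of MHC probe sets in the 16 pools, with 1 symbol per pool by strain label. On the left, no pool is high for both mhc1ufa and mhc1uaa; on the right, the 4 pools labelled SH are the lowest for mhc2dab, at up to 4.82, and lie at 2.56 to 2.78 for mhc2daa.

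Expression of mhc1zba, a class I gene of the Z lineage, varied less. Pools labelled Gaighatta gave 7.60, 7.45, 7.00 and 7.45, and those labelled Nadia 7.17, 7.32, 7.15 and 7.36. Pools labelled TM1 gave 6.89, 6.20, 6.56 and 6.96, and those labelled SH 6.55, 5.82, 6.94 and 5.66. Every pool of Gaighatta and Nadia was above every pool of TM1 and SH. Means were 7.37 ± 0.26, 7.25 ± 0.10, 6.65 ± 0.35 and 6.24 ± 0.60 (SD, n = 4). SH lay 1.13 below Gaighatta (SE 0.23, adjusted p = 0.00333) and 1.01 below Nadia (adjusted p = 0.0172), and TM1 0.72 below Gaighatta (adjusted p = 0.0379). TM1 and Nadia differed by 0.60 with no overlap and did not pass (adjusted p = 0.181). The call between TM1 and Gaighatta was lost without TM1 F2, TM1 M1, Gaighatta F1, Gaighatta F2 or Gaighatta M2 (adjusted p = 0.0775 to 0.111) and without both male TM1 pools (0.0895), and that between SH and Nadia without SH F2 (0.0593) or SH M2 (0.0583).

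For mhc2dab, a class II gene that encodes a beta chain, the pools labelled SH stood apart. They gave 2.87, 4.33, 4.82 and 3.05, of which F1 and M2 are not shown to be above background. Pools labelled Gaighatta gave 7.86, 8.06, 7.59 and 7.52, those labelled Nadia 7.39, 7.88, 7.27 and 6.52, and those labelled TM1 6.69, 6.96, 8.31 and 6.51. The highest SH pool was thus 1.69 below the lowest of the other 12. Means were 3.77 ± 0.95, 7.76 ± 0.25, 7.27 ± 0.56 and 7.12 ± 0.82 (SD, n = 4). SH was lower than Gaighatta by 3.99 (SE 0.43, adjusted p = 6.68e-06), than Nadia by 3.50 (adjusted p = 0.000124) and than TM1 by 3.35 (adjusted p = 0.000234). The other 3 strains overlapped, with adjusted p-values of 0.296 to 0.886 between them.

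The alpha chain gene mhc2daa also had its lowest mean under the label SH, at values not shown to be above background there. SH pools gave 2.56, 2.75, 2.78 and 2.57, and TM1 pools 2.75, 3.28, 3.76 and 2.79. Nadia pools gave 3.72, 4.22, 3.78 and 3.32, and Gaighatta pools 3.88, 4.25, 3.50 and 3.69. SH did not overlap with Nadia or Gaighatta, and TM1 overlapped with all 3 other strains. Means were 2.67 ± 0.11, 3.14 ± 0.47, 3.76 ± 0.37 and 3.83 ± 0.32 (SD, n = 4). SH was below Gaighatta by 1.17 (SE 0.22, adjusted p = 0.00149) and lower than Nadia (3.76 against 2.67, adjusted p = 0.0062), but the 0.48 between TM1 and SH did not pass (adjusted p = 0.19). TM1 was below Gaighatta by 0.69 (adjusted p = 0.0335), a call lost without TM1 F1, TM1 M2, Gaighatta F1 or Gaighatta F2 (adjusted p = 0.0701 to 0.103), and it passed below Nadia only without TM1 M1 (0.82, adjusted p = 0.0356). Over the 16 pools mhc2dab and mhc2daa had an r of 0.85, and an r of 0.78 after strain means were removed, the highest of the 10 pairs of these genes. The pools share strain and array, so this is a description.

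The low mhc2dab values under the label SH had no counterpart of that size in the invariant chain genes. cd74a and cd74b encode the chaperone that holds class II molecules on their way to the endosome. cd74a averaged 11.16 ± 0.29 in TM1, 10.80 ± 0.13 in SH, 10.81 ± 0.19 in Nadia and 10.54 ± 0.15 in Gaighatta (SD, n = 4), so SH lay 0.02 from Nadia (SE 0.14, adjusted p = 0.968) where mhc2dab differed by 3.50. cd74b averaged 9.06 in SH and 9.07 in Nadia (adjusted p = 0.986). Both were highest in TM1, by 0.61 (cd74a, adjusted p = 0.00469) and 0.94 (cd74b, adjusted p = 0.00233) over Gaighatta. This height lay in the male TM1 pools, at 11.39 and 11.41 for cd74a and 10.14 and 9.90 for cd74b, while the TM1 females, at 10.81 and 11.02 and at 9.14 and 9.36, lay among or close to the SH and Nadia pools. Without both male pools the differences from Gaighatta were 0.37 (cd74a, adjusted p = 0.0936) and 0.56 (cd74b, adjusted p = 0.043). Another class II gene outside the lists, mhc2d4b, chosen after its values were seen, averaged 3.49 ± 0.09 in SH and 3.96 ± 0.28 in Gaighatta (difference 0.47, adjusted p = 0.0259). Its SH mean was 0.19 from those of Nadia and of TM1, and neither difference passed (adjusted p = 0.465 and 0.426). The SH pools of mhc2d4b, at 3.38 to 3.59, lay just above the values of the absent transgene. In tissue pools, fewer cells that express a gene and less RNA per cell cannot be told apart.

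The proteasome activator gene psme1 was highest in the pools labelled TM1, which gave 6.69, 6.66, 7.28 and 7.35. SH pools gave 6.25, 6.46, 6.55 and 6.39, Nadia pools 6.21, 6.39, 6.15 and 6.35, and Gaighatta pools 5.84, 5.74, 5.84 and 6.25. All TM1 pools were above the other 12, the female pools by little. Means were 7.00 ± 0.37, 6.41 ± 0.12, 6.28 ± 0.11 and 5.92 ± 0.23 (SD, n = 4). TM1 was above Gaighatta by 1.08 (2.11-fold, SE 0.15, adjusted p = 0.000169), above Nadia by 0.72 (adjusted p = 0.0144) and above SH by 0.58 (adjusted p = 0.0318), and SH was above Gaighatta by 0.49 (adjusted p = 0.0359).

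Much of this height lay in the 2 male TM1 pools. Without both, a comparison added after the data had been seen, psme1 was 0.26 above SH (adjusted p = 0.325) and 0.40 above Nadia (adjusted p = 0.173), still 0.76 above Gaighatta (adjusted p = 0.00271), and Nadia passed over Gaighatta (0.36, adjusted p = 0.0422). The call between TM1 and SH was also lost without any 1 of TM1 M1, TM1 M2, SH F1, SH F2 and SH M2 (adjusted p = 0.0638 to 0.0919), and that between SH and Gaighatta without any 1 of SH F2, SH M1, SH M2, Gaighatta F1, Gaighatta F2 and Gaighatta M1 (0.0698 to 0.103).

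**Figure D3:**
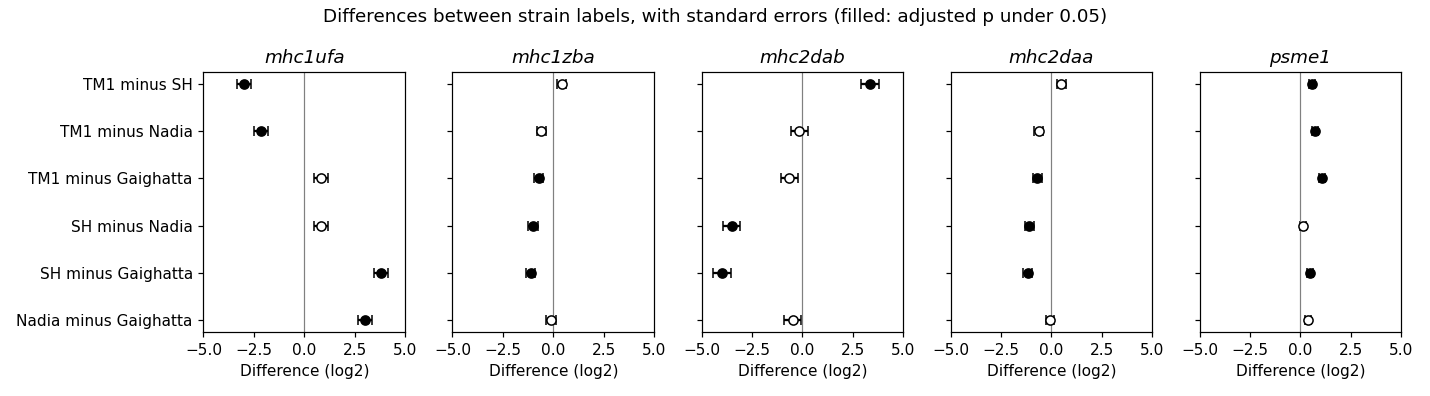
Differences in log2 expression between strain labels (horizontal axis) for the 6 strain pairs, with standard errors from the limma fit of 16 pools; filled circles have an adjusted p under 0.05. The largest are those of mhc2dab in pairs with SH, 3.35 to 3.99 in size, and of mhc1ufa between SH or Nadia and TM1 or Gaighatta, 2.16 to 3.81.

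Exact two-sided permutation tests of 4 against 4 pools cannot give less than 0.0286. All 5 genes reached that value between SH and Gaighatta, where 23.8% of all probe sets had pools that did not overlap. For psme1 the pools nearly touched there, SH F1 and Gaighatta M2 both lying at 6.25 (rounded gap 0.00). The corresponding counts were 3 genes between TM1 and SH (14.5% of probe sets), 3 between TM1 and Nadia (9.95%), 2 between TM1 and Gaighatta (25.1%), 3 between SH and Nadia (13.1%) and 1 between Nadia and Gaighatta (20.6%).

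The second question of the study was how expression differs by history of captivity. Between the mean of the labelled domesticated strains and that of the labelled wild strains all 5 genes passed, where 12.8% of all probe sets did. Higher on the labelled domesticated side were mhc1ufa, by 0.82 (SE 0.25, adjusted p = 0.0408), and psme1, by 0.61 (SE 0.11, adjusted p = 0.00156), where 5.3% of all probe sets were higher. Lower on that side were mhc2dab, at -2.07 (SE 0.30, adjusted p = 0.000265), mhc2daa, at -0.89 (SE 0.15, adjusted p = 0.0011), and mhc1zba, at -0.86 (SE 0.17, adjusted p = 0.00266), where 7.46% of all were lower. Under the names of the study's table, by which the arrays with the transgene signal are TM1 as the study states, each of these directions is reversed. With strain as a random block, or the 4 strain means as the samples, 0 of the 5 genes passed (limma). The share of all probe sets that passed these fits after adjustment was not counted, so the 0 alone says nothing particular to these genes. At an unadjusted p under 0.05 these fits left 4 genes, where 9.43% of all probe sets were under it, and 2 genes, where 3.95% were.

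The strains of 1 side were not alike in most of these genes. For mhc1ufa each side held 1 high and 1 low strain, and 8 against 8 pools ranged over 3.24 to 7.61 and 3.06 to 6.91. Its call was lost on leaving out any 1 of 13 pools, and held without TM1 F1, SH M1 or Nadia M2 (adjusted p = 0.0145 to 0.0731 over the 16 omissions). Without both male TM1 pools it was 0.55 (adjusted p = 0.158). For mhc2dab the labelled domesticated side held SH, below all other pools, and TM1, whose pools overlapped with those of both labelled wild strains. Only mhc1zba kept the 8 labelled domesticated pools, at 5.66 to 6.96, apart from the 8 labelled wild ones, at 7.00 to 7.60, as did 0.947% of all probe sets. For psme1 the ranges 6.25 to 7.35 and 5.74 to 6.39 overlapped.

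Sex was tested in a model of strain by sex. Of the 5 genes 0 passed for the mean difference between males and females (limma; 0.151% of all probe sets did), and 0 for an interaction with strain (0.0757%). By unadjusted p-values under 0.05 each count was 1, psme1 in both. Over all strains it was 0.24 higher in males (SE 0.08, adjusted p = 0.3), and its interaction had an adjusted p of 0.993. In pools labelled TM1 psme1 averaged 7.31 in males and 6.68 in females, a difference of 0.64 (SE 0.15, adjusted p = 0.177), against -0.04 in Nadia. mhc1ufa was 1.09 higher in TM1 males (SE 0.44, adjusted p = 0.687) and at -0.59 in SH. All 5 genes had the higher mean in TM1 males, as did 40.6% of all genes, and 0 of the 5 passed, where 0.328% of all probe sets did. At an unadjusted p under 0.05 in TM1 mhc1ufa and psme1 were left (limma). The shares of all probe sets at an unadjusted p under 0.05 in these sex tests were not counted, so the unadjusted counts are not read as a result.

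**Figure D4:**
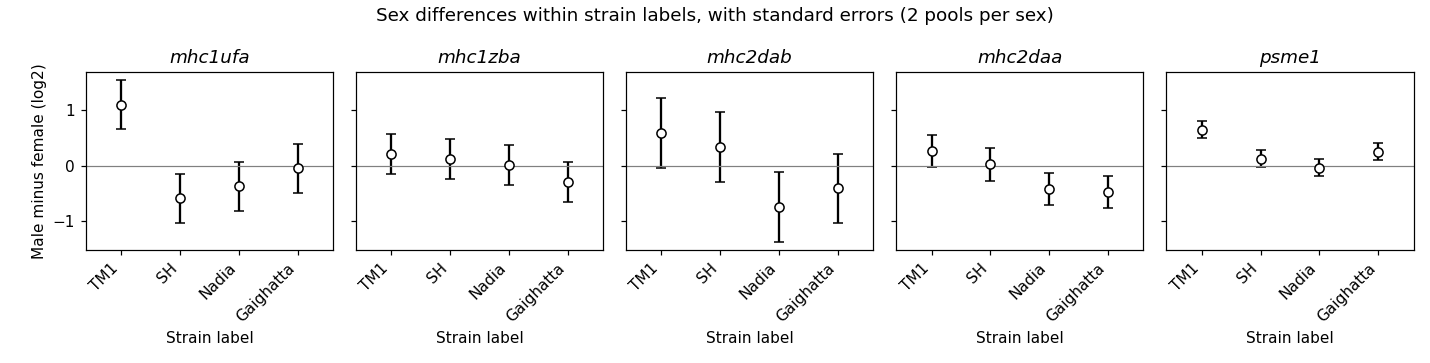
Male minus female difference in log2 expression (vertical axis) of the 5 genes within each strain label, from 2 pools per sex, with standard errors of the factorial limma fit. No difference had an adjusted p under 0.05; the largest is that of mhc1ufa in TM1, 1.09 with a standard error of 0.44.

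The male TM1 pools also stood apart in lists of other immune genes. The mean of 18 measured markers of microglia and other leukocytes was 5.91 and 6.10 in them and 5.20 to 5.67 in the other 14 pools, with 15 of the 18 higher in TM1 males than in TM1 females, as were 40.6% of all genes. The 8 genes of the interferon response averaged 5.94 and 6.23 there and 4.71 to 5.48 elsewhere. The 14 markers of neurons, radial glia and myelin averaged 9.63 and 9.99 in the male TM1 pools and 9.99 to 10.19 elsewhere. Of the interferon list, lgals3bp.1 and isg15 were 3.62 and 1.89 higher in TM1 than in Gaighatta (adjusted p = 2.88e-08 and 0.000959), and ifi35 and gbp1 also passed. For lgals3bp.1 the Gaighatta mean was low, 5.27 against 8.89 in TM1, 8.64 in SH and 7.86 in Nadia. SH and Nadia also passed over Gaighatta (3.37 and 2.59, adjusted p = 3.05e-08 and 7.8e-07). TM1 passed over Nadia (1.03, adjusted p = 0.0155) but not over SH (0.25, adjusted p = 0.539). Between the sexes in TM1, gbp1 and isg15 passed as higher in males, by 1.47 and 1.56 (adjusted p = 0.000262 and 0.0263), where 0.328% of all probe sets did. gbp1 also passed for sex over all strains (adjusted p = 0.0381, where 0.151% did) and for the interaction (adjusted p = 0.0125, where 0.0757% did). Unlike the list mean, lgals3bp.1 was not higher in TM1 males than in TM1 females (-0.26, adjusted p = 0.901). Without both male pools lgals3bp.1 lay 3.75 and isg15 1.11 above Gaighatta (adjusted p = 2.74e-06 and 0.00185). ifi35 and gbp1 did not pass there (adjusted p = 0.13 and 0.192). Of the leukocyte markers c1qc, marco and ncf1 passed between the sexes in TM1, by 0.91, 0.78 and 1.78 (adjusted p = 0.0147, 0.0169 and 0.0111), where 0.328% of all probe sets passed. For cyba the probe sets disagreed. The one of highest mean, which stands for it in the list, did not pass (0.01, adjusted p = 0.99), and another did (1.21, adjusted p = 0.0106). None of the 21 listed markers of T and B lymphocytes was matched to a probe set. Leaving out both male pools removes everything that sets them apart, so the part of these lists in the MHC differences was not tested.

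The wider pathway of antigen presentation also differed between strains. Of 126 listed genes in 6 lists, 30 were measured and 24 differed among strains (80%), against 33% of the 4924 genes with a single symbol, represented by 1 probe set each. Without the 5 genes described above the count was 19 of 25. The median of the largest strain difference was 0.84 for the 30 genes and 0.30 for all genes. By labelled history 5 passed as higher and 5 as lower on the domesticated side, where 11.9% of all genes passed. These lists were drawn up with earlier results of the same arrays known.

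Among the class I genes all 4 measured passed, where 33% of all genes did. Besides mhc1ufa, mhc1zba and mhc1uaa these included b2m, the small subunit that every class I molecule carries. It averaged 9.89 ± 0.39 in TM1, 9.29 ± 0.09 in SH, 9.40 ± 0.33 in Nadia and 9.13 ± 0.18 in Gaighatta, and passed only between TM1 and Gaighatta (0.77, adjusted p = 0.00647), a call lost without both male TM1 pools (0.43, adjusted p = 0.128). Thus b2m did not follow the order of mhc1ufa or of mhc1uaa. All 5 genes of class I peptide loading passed, against the same 33%. calr, coding for calreticulin, a chaperone of the endoplasmic reticulum, was 1.51 lower in Nadia than in Gaighatta (adjusted p = 0.00137), and its relative calr3b 1.09 lower (adjusted p = 0.000835). pdia3, a disulfide isomerase, was 0.59 lower in SH than in Gaighatta (adjusted p = 0.00924), and tapbp.1, coding for tapasin, 0.43 lower in TM1 than in Gaighatta (adjusted p = 0.0283).

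The mean of the immunoproteasome list, which includes psme1, was highest in the 2 male TM1 pools, at 6.34 and 6.36 against 5.40 to 6.00 in the other 14, and 6 of its 7 genes had a higher mean in TM1 males than in TM1 females. Of these 7 measured genes 6 passed (85.7%, against 33% of all genes), psmf1, a proteasome inhibitor, being the exception at a largest difference of 0.16 (adjusted p = 0.405). Of the catalytic subunit genes, psmb8a, psmb9a and psmb12 were lowest under the label Gaighatta. They lay below TM1 by 0.87, 0.90 and 0.90 (adjusted p = 0.00637, 0.000794 and 0.00236). Without both male TM1 pools these were 0.50, 0.63 and 0.54 (adjusted p = 0.0495, 0.0206 and 0.0357). Gaighatta pools gave 3.53 to 3.87 for psmb9a and 3.72 to 4.02 for psmb12, against 2.46 to 3.36 for the absent transgene. These sizes may thus not be those of the transcripts. The catalytic subunit gene psmb10 was not low under Gaighatta, which lay above SH by 0.46 (adjusted p = 0.0187) and above Nadia by 0.41 (adjusted p = 0.0403). psme2, which codes for the other PA28 subunit, averaged 6.94 in TM1 and 6.24 in SH (difference 0.69, adjusted p = 0.01). psmb10 was 0.60 higher in TM1 than in SH (adjusted p = 0.0105). Without both male TM1 pools both differences from SH stood at 0.45 and did not pass (adjusted p = 0.0948 and 0.109). psme2 was also 0.69 higher in TM1 than in Gaighatta (adjusted p = 0.00357), and this passed without both male TM1 pools (0.45, adjusted p = 0.0498). Of 12 measured genes of the constitutive proteasome only psmd3 passed (8.33%), by 0.35 between SH and Nadia (adjusted p = 0.0454), and the median of their largest differences was 0.19.

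Of the class II processing genes 3 of 5 passed (60%, against 33% of all genes). The cathepsin gene ctss2.2 was 1.53 higher in TM1 than in Gaighatta (adjusted p = 0.00111), ctsba 1.36 higher in Gaighatta than in Nadia (adjusted p = 0.000169), and lgmn, which encodes legumain, 0.56 higher in TM1 than in SH (adjusted p = 0.0291). Without both male TM1 pools ctss2.2 was 0.86 higher (adjusted p = 0.0123) and the lgmn call was lost (0.33, adjusted p = 0.278). Of 5 regulators 2 passed (40%), near the 33% of all genes. They were irf1b, an interferon regulatory factor, by 1.62 between TM1 and Gaighatta (adjusted p = 0.00414), and jak1, a kinase of cytokine receptors, by 0.64 between TM1 and Nadia (adjusted p = 0.0134). Without both male TM1 pools these were 0.72 (irf1b, adjusted p = 0.0384) and 0.52 (jak1, adjusted p = 0.134). rfxap and nfya, subunits of factors that bind MHC promoters in mammals, did not pass, with at most 0.12 and 0.10 between any strains (adjusted p = 0.635 and 0.625). In TM1, 23 of the 30 pathway genes had a higher mean in males, as did 40.6% of all genes. The difference passed for 3, against 0.328% of all probe sets: irf1b by 1.80 (adjusted p = 0.000936), ctss2.1 by 1.56 (adjusted p = 0.00262) and ctss2.2 by 1.33 (adjusted p = 0.021).

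**Figure D5:**
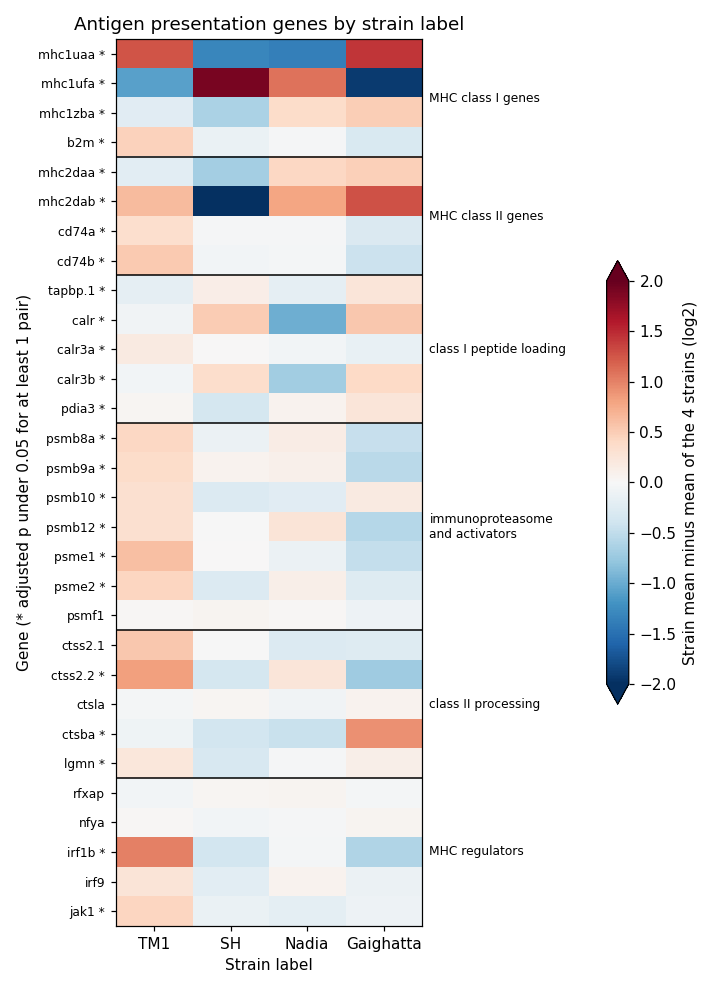
Strain mean minus the mean of the 4 strains (color, log2, cut off at 2) for the 30 measured genes of 6 antigen presentation lists, by strain label; an asterisk marks an adjusted p under 0.05 in at least 1 strain pair. mhc1uaa and mhc1ufa have opposite signs in every strain, and the low mhc2dab in SH has no counterpart in cd74a or cd74b.

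The genes whose values were most like those of each member over the 16 pools were taken by Pearson's r, as a description. For mhc1ufa they were abat, an enzyme that breaks down GABA (0.90), hnrnpa0a (0.89), lin7c, rock2b (0.88 each) and cdc42 (0.86), with an r of at most 0.30 once strain means were removed. For mhc1zba they were rgp1 (0.86), pepd (0.84), synprb (0.82), cyp19a1b, the brain aromatase (0.81), and sirt2 (0.81). For mhc2dab they were add3a (0.94), cd99l2 (0.93), chd1l, usp36 (0.87 each) and neu3.2 (0.86). For mhc2daa they were hgs, gpatch3, sec31a, mhc2dab and chd1l, at 0.89 to 0.83. For psme1 they were mapre1a, coding for a protein of growing microtubule ends (0.92), c1qc, a complement gene of microglia (0.90), tspan37 (0.89), rnaseka and cd74b (0.88 each). With strain means removed the r of these 5 with psme1 was 0.82, 0.73, 0.75, 0.89 and 0.63 in that order.

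By the order of genes in the RefSeq annotation of assembly GRCz12tu, which is not the build of the array and gives names only, mhc1zba lies between mhc1zca and cbr1, and mhc2daa between mhc2dhb and slc7a4. psme1 lies between pck2 and fitm1. psmb8a, psmb12 and psmb9a follow each other beside tap2a, in the neighborhood of the class I gene mhc1uba. mhc1ufa and mhc2dab were not matched in that annotation.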

How the data were processed

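Total RNA (10 µg per array) from 16 pools of zebrafish brains was hybridized to Affymetrix Zebrafish Genome Arrays. The deposited log2 values were made by the authors with RMA (affy package, versions not given in the sources used here), which corrects background, normalizes by quantiles and summarizes the probes of a probe set, and were filtered for expression by the authors, leaving 7958 probe sets. For this step the paper also names a filter at an interquartile range of 0.5. The 36 control probe sets were left out. Of the others only 854 had an interquartile range of at least 0.5, so the deposited values do not show that filter. Of the 7922 tested, 5639 had 1 gene symbol in the annotation table, 54 several and 2229 none there. mhc2dab and mhc1uaa were named from the study's table, and the arrays were matched to its columns over 1642 probe sets. Array medians are set by RMA, and the number of arrays limits the precision.

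Strain means, the 6 strain pairs and labelled history of captivity were fitted over all 16 pools with limma 3.58.1 in R 4.3.3 (lmFit, eBayes, Benjamini-Hochberg within each contrast, threshold 0.05), and sex in a strain by sex model whose interaction terms were tested jointly (F test), as in the study's methods. For history of captivity the study also limited how far the ranges of wild and domesticated samples may overlap, a criterion not applied to the calls here. The study's filter for polymorphic probes needs probe values and was not used here. The study removed the probe sets it flagged before its own strain tests. mhc2dab and mhc1uaa stand in its table of strain differences and so were not removed, and the paper names mhc2dab among its most different genes. For the other genes this is not reported here. The tests were tried on simulated data. In lists, the probe set of highest mean stands for a gene that has several.

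Members, lists and tests were chosen with earlier results of these data known. The rule names all members, up to 4 called genes per list with the largest strain difference, and the 5 most similar genes per member; called genes of the cell type lists are given as counts. psme2, psmb10, psmf1, rfxap, nfya, ctss2.1, mhc2d4b and the markers that passed between the sexes in TM1 fall outside it and were chosen after their values were seen. The 14 lists are MHC class I, MHC class II, class I peptide loading, immunoproteasome, class II processing, MHC regulators, constitutive proteasome, interferon response, microglia and other leukocytes (5 of 18 measured genes differed among strains), lymphocytes, red blood cells (3 of 8), endothelium (2 of 5), meninges (7 of 10) and brain identity (7 of 14). Of the interferon list 4 of 8 differed. Among all genes 33% differed, so the leukocyte list, at 27.8%, lay below that share. Red blood cells, at 37.5%, and endothelium, at 40%, lay near it. Meninges, at 70%, and the interferon and brain identity lists, at 50% each, lay above it, so a high share was not particular to antigen presentation. Alternatives concerned the probe sets tested, scaling, variance model, covariates, adjustment, pools and the model of history. Behavior and quantitative PCR were not analysed here.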

Additional observations from a re-analysis of the deposited data

How the results depend on the processing

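All members tested differed among strains under every alternative run except with male pools only (3 of 5). The filters on interquartile range and on mean each left 4 of the 5 members to test, psme1 and mhc2daa falling out, and all 4 passed, as did the 4 probe sets named by the annotation table. With male pools only the counts of members were 1 between TM1 and SH, 1 between TM1 and Nadia, 1 between TM1 and Gaighatta, 0 between SH and Nadia, 2 between SH and Gaighatta, and 1 by labelled history. Between TM1 and Nadia the count was 1 with female pools only, among probe sets with an interquartile range of at least 0.5, and without both TM1 male pools. Between Nadia and Gaighatta it was 2 with array weights and without both TM1 male pools. By labelled history it was 0 with the 4 strain means as samples and 0 with strain as a random block, and trend and robust eBayes took mhc1ufa to an adjusted p of 0.0739. Of the 30 pathway genes 11 differed with female pools only and 13 without the pools labelled Gaighatta. The filter on an interquartile range of at least 0.5 left 854 probe sets in all, and 9 pathway genes passed among those it kept. Pathway genes that this filter removed were not tested, so 9 is not a count out of 30. Shares of all probe sets under these alternatives were not counted. Leaving out 1 pool in turn gave 5 to 5 members among strains, 22 to 25 pathway genes, 2 to 3 members for TM1 and SH, 2 to 3 for TM1 and Nadia, 1 to 3 for TM1 and Gaighatta (1 without Gaighatta F1 or F2), 2 to 3 for SH and Nadia, 4 to 5 for SH and Gaighatta, 1 to 1 for Nadia and Gaighatta, and 4 to 5 by history. No member changed direction in its largest strain difference or by labelled history. Some differences of pathway genes did without both TM1 male pools, such as ctss2.1 between TM1 and SH (0.55 to -0.23, passing in neither fit). The cause of the changes was not tested. Same-numbered pools did not deviate together (6 of 28 group pairs over 0.1, median correlation 0.00), so numbers do not pair pools. With the replicate block the counts were 5 members among strains, 24 pathway genes and 5 members by history, and no count of calls moved. With 4 pools per strain the number of arrays limits each mean.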

Other observations

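A probe set whose entry in the annotation table lists both rhof and the class I gene mhc1uba, was given to neither gene. In pools labelled Nadia it measured 7.23 in F1 and 7.20 in M1 but 3.33 in F2 and 3.07 in M2, and in the other 12 pools it ranged from 3.00 to 3.55. The 2 high pools were 1 female and 1 male pool of the same label. No strain pair passed for it (limma, adjusted p = 0.0737 between Nadia and Gaighatta, the smallest of the pairs). It was chosen after its values were seen.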
